A study of Homo sapiens with 120 samples.

Results

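RNA libraries from C1 capture sites that held 1 CFPAC-1 cell (one-cell captures, n = 5) were set against libraries from C1 capture sites recorded as holding 0 cells (empty captures, n = 5), to describe which transcripts came with a cell and which were also read where no cell was recorded. The 10 libraries were chosen by the labelled isolation method and number of cells, out of 120 libraries in the series. CFPAC-1 is an established human cell line from a pancreatic ductal adenocarcinoma, and both groups carry the label of no drug treatment. The Fluidigm C1 is a microfluidic chip on which each cell is held at its own site, lysed and reverse transcribed. The SMARTer kit made the cDNA and the Nextera XT kit the libraries. Bulk RNA (n = 4), C1 captures with 2 cells (n = 5), empty microrafts (n = 10), microrafts with 1 cell (n = 10) and water (n = 7) are given beside the captures where they bear on a value. Of the 7 water libraries 1 carries the label of saline and 2 carry labels of gemcitabine at 2 and 5 nM, and the rest the label of no treatment. The labels name no chip, culture or run for any capture, so it is not known whether cells and empty sites shared a chip. Each library is 1 cell or 1 chamber and no separate cultures are named. Each group was therefore counted as 1 sample, and values per library, ranges and SDs are given as a description with no test and no p-value.

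An empty capture site passes through the same lysis, reverse transcription and amplification as a site with a cell. Whatever RNA is in the fluid, from broken cells, from carry-over or from reagents, is amplified there without competition from a cell's own RNA, and reads of such molecules are commonly called ambient. Abundant short mRNAs of the ribosome, of mitochondrial respiration and of the cytoskeleton make up a large part of the mRNA of a growing epithelial cell. Nuclear noncoding RNAs such as MALAT1 and rRNA of mitochondria are known as signs of leaked or damaged cell content in single-cell work.

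Empty captures held fewer genes than one-cell captures, and they differed among themselves far more. Values are FPKM, fragments per kilobase of transcript scaled to the size of the library, and genes with 1 FPKM or more count as detected. Levels in cells and empty captures thus compare shares within libraries and not amounts of RNA. One-cell captures 1 to 5 had 8560, 9144, 9084, 8851 and 10474 genes detected, against 5501, 7953, 2137, 1270 and 865 in empty captures 1 to 5. No empty capture reached the lowest one-cell capture, and empty capture 2 lay closest. The one-cell mean was 9223 ± 736 genes and the empty mean 3545 ± 3066 genes (SD, n = 5 each). The 10 highest genes took 8.18% to 10.4% of summed FPKM in one-cell captures, against 67.8%, 31.4%, 52.5%, 61.9% and 46.9% in empty captures 1 to 5. The highest single gene took at most 1.93% of a one-cell capture. In the empty captures it was MTRNR2L2 in capture 1 (24.4%) and capture 2 (8.45%), FTH1 in capture 3 (16.5%), IFITM2 in capture 4 (19.8%) and RPS27A in capture 5 (14.7%). FTH1 encodes the ferritin heavy chain, IFITM2 an interferon-induced membrane protein, and RPS27A ubiquitin fused to a ribosomal protein. These 3 leading mRNAs were each lower in the other empty captures: IFITM2 was at 0 in captures 3 and 5, RPS27A at 0 in captures 1, 3 and 4, and FTH1 at 937 FPKM or less outside capture 3.

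**Figure D1:**
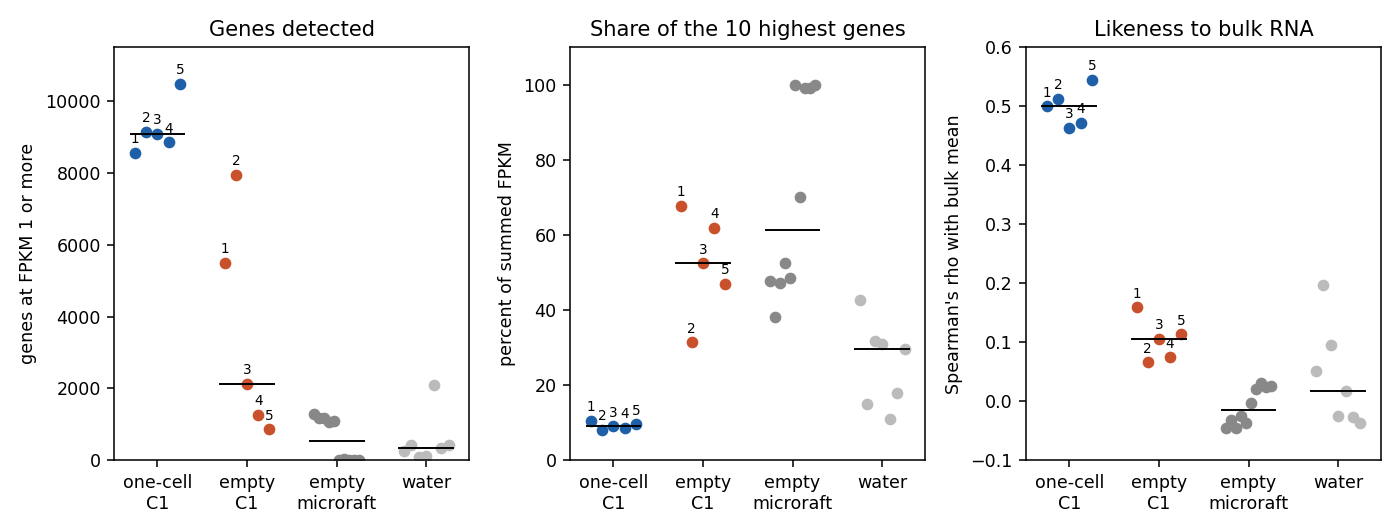
Genes at an FPKM of 1 or more, percent of summed FPKM in the 10 highest genes, and Spearman's rho with the bulk mean, for one-cell C1 captures, empty C1 captures, empty microrafts and water; each point is a library, numbers are capture numbers and bars are medians. One-cell captures sit at 8560 genes or more and at a rho of 0.463 or more, above every empty capture.

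The ranking of genes in the empty captures had little in common with that in the cells. Over the 10767 genes whose bulk mean reached 1 FPKM, rank correlation with that mean (Spearman's rho) was 0.500, 0.513, 0.463, 0.472 and 0.544 in one-cell captures 1 to 5, against 0.159, 0.066, 0.106, 0.075 and 0.113 in empty captures 1 to 5. Across the 10338 genes compared between the groups, pairs of one-cell captures had a rho of 0.442 to 0.544 (10 pairs), pairs of a one-cell and an empty capture 0.014 to 0.177 (25 pairs), and pairs of empty captures 0.095 to 0.273 (10 pairs). Genes are not independent replicates, and these libraries share their preparation, so the values describe and carry no p. Most genes read in the empty captures were also read in the cells. Of the genes detected in empty captures 1 to 5, 78.6%, 71.4%, 81.8%, 80.8% and 83.2% were also detected in at least 3 of the 5 one-cell captures. That class holds 29.4% of all rows. The same share was 70.7% to 87.7% in the 7 water libraries and 63.6% to 88.9% in the 10 empty microrafts. It is thus not particular to empty captures. Among the genes that an empty capture shared with that class, rho with the mean level of the one-cell captures was 0.349, 0.219, 0.347, 0.322 and 0.357 in empty captures 1 to 5. The same measure for each one-cell capture against the other 4 one-cell captures was 0.638 to 0.709. Titles give each library a pair of indices. Pairs of an empty capture and a capture with 1 or 2 cells that had an index in common had a median rho of 0.103 (8 pairs), and pairs with none in common had 0.108 (42 pairs).

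A gene was found more often in an empty capture the higher it stood in the cells. Among the 83 genes with a mean log2(FPKM + 1) of 10 or more in one-cell captures, 89.2%, 84.3%, 45.8%, 33.7% and 38.6% were detected in empty captures 1 to 5. Among the 4197 genes between 2 and 4 on that scale the shares were 44.2%, 59.9%, 17.6%, 10.2% and 5.96%. In captures 1, 3, 4 and 5 the share was higher at every step up in level, while in capture 2 it stayed between 56.1% and 61.9% from level 2 to level 10. Of the 14259 genes at 0 in all 5 one-cell captures, between 0.119% and 1.88% were detected in a given empty capture. Of 239 genes between 8 and 10 on that scale, 26 were detected in no empty capture, and of the 83 above them, 0.

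**Figure D2:**
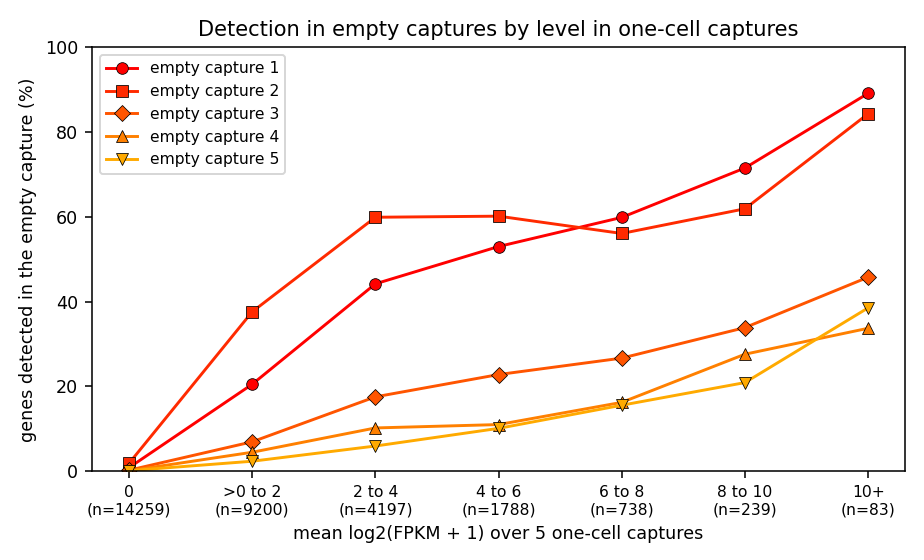
Percent of genes detected (FPKM of 1 or more) in each of the 5 empty captures, for bins of mean log2(FPKM + 1) over the 5 one-cell captures; n is the number of genes in a bin. In the highest bin capture 1 detected 89.2% and capture 4 detected 33.7% of 83 genes.

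Most genes that differed were higher in the cells. Among 10338 genes with an FPKM of 1 or more in at least 3 of the 10 captures, 4392 (42.5%) were higher by 2 or more on the log2(FPKM + 1) scale in one-cell captures and 81 (0.784%) were lower by 2 or more. The median difference over all genes, one-cell minus empty, was 1.60. All 5 one-cell captures lay above all 5 empty captures for 1504 genes (14.5%) and below them for 7 genes (0.0677%). With quantile normalization over the 10 captures the counts were 2296 higher and 343 lower and the median difference was 0.84, a shift of -0.76, and 87.0% of genes past the threshold were higher, against 98.2% without it. Without empty capture 5 the number lower was 174, and without empty capture 4 it was 127. A difference on this scale understates the change of genes near 0, and for a gene at 0 in all empty captures it equals the gene's mean level in the cells.

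**Figure D3:**
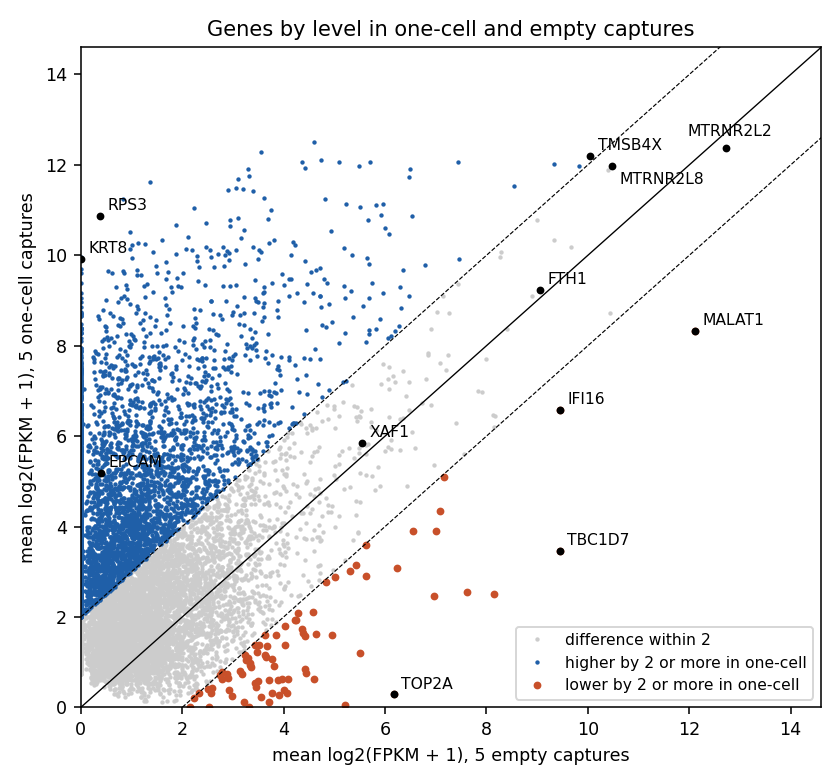
Mean log2(FPKM + 1) of 10338 genes in 5 one-cell captures (vertical) and 5 empty captures (horizontal); blue and red points differ by 2 or more, dashed lines mark a difference of 2 and the solid line equality. The 4392 genes higher in one-cell captures lie above the upper dashed line, 81 genes lie below the lower one, and black points are labelled genes.

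The 12 largest positive differences ran from 9.15 to 10.50. KRT8, the keratin of simple epithelia, lay at 577, 580.3, 1570.2, 1731 and 926 FPKM in one-cell captures 1 to 5 and was listed at 0 in all 5 empty captures. PSMB5, the catalytic proteasome subunit with chymotrypsin-like activity, lay at 1186, 1130.3, 719, 762 and 1336 FPKM in one-cell captures and also at 0 in all 5 empty captures. RPS3, a protein of the small ribosomal subunit, lay between 1646 and 2272 FPKM in one-cell captures and in the empty captures at 2.60 FPKM in capture 1 and 0 in the rest. For each of these 3 genes the groups did not overlap. A further 8 of the 12 largest differences had the same shape. RPL12 of the large ribosomal subunit, COX4I1 of cytochrome c oxidase, ATP5G2 of ATP synthase and ROMO1, a mitochondrial inner membrane protein, were at 0 in all empty captures. They lay between 438 and 1400 FPKM across the one-cell captures. PSMB3 and PSMB4 of the proteasome, the ubiquitin gene UBB and the glycolytic aldolase ALDOA were read in 1 or 2 empty captures, at 48.4 FPKM or less, where the one-cell captures held 620.1 FPKM or more.

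Cell transcripts, detected in 5 of 5 one-cell captures and in 0 of 5 empty captures, numbered 620. Their median bulk level was 59.8 FPKM, against 5.84 FPKM for all genes compared, and 95.0% of them had a bulk mean of 1 or more, against 74.4%. Of the 620, 6 (0.968%) were detected in 2 or more of the 7 water libraries, against 4.48% of all genes compared. Of the 593 cell transcripts matched to a RefSeq gene, 573 were protein coding, with a median gene span of 19454 bp, against 33294 bp for the coding genes among all genes compared. Detection in 5 of 5 one-cell captures by itself selects genes of higher bulk level. The 4507 genes so detected, whatever the empty captures, had a median bulk level of 14.7 FPKM, and 84.1% had a bulk mean of 1 or more. Of these 4507 genes 7.59% were detected in 2 or more water libraries, and the median span of the coding ones was 30721 bp. Leaving out an empty capture can only enlarge the class of cell transcripts. The class numbered 958 without empty capture 1, 1316 without empty capture 2 and 2705 without both. Without empty capture 3, 4 or 5 it numbered 658, 645 and 650.

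Among markers of the cell line's own tissue the groups did not overlap for KRT8, KRT18 and EPCAM, and overlapped for KRT7, CLDN4 and CDH1. EPCAM, the epithelial adhesion molecule, lay at 33.7, 23.4, 32.5, 21.4 and 99.8 FPKM in one-cell captures 1 to 5, against 2.98 FPKM in empty capture 1 and 0 in the other empty captures. KRT18, the partner of KRT8 in the keratin filament, lay between 642 and 4114 FPKM in one-cell captures, against 21.6, 1.07, 38.5, 29.6 and 0 FPKM in empty captures 1 to 5. KRT7, a keratin of ductal epithelia, lay at 8.36, 84.3, 148.7, 160.5 and 117.03 FPKM in one-cell captures 1 to 5, against 3, 0, 0, 0 and 25.2 FPKM in empty captures 1 to 5. Its groups overlapped through one-cell capture 1 and empty capture 5. CLDN4, a tight junction claudin, lay between 12.99 and 173 FPKM in one-cell captures and at 70.6 and 8.81 FPKM in empty captures 1 and 2. CDH1, E-cadherin, lay between 3.67 and 90.96 FPKM in one-cell captures, against 12.01, 4.95, 28.3, 55.5 and 0 FPKM in empty captures 1 to 5. CFTR, the duct chloride channel, was listed at 0 in all 5 one-cell captures and at 0.29 FPKM or less in the empty captures. Summed over the 7 ductal markers reported, one-cell captures held 1342 to 5936 FPKM and empty captures 15.1 to 110.2 FPKM. KRT19 was not analysed here. Of 27 genes of a wider list of epithelial and ductal identity 19 were higher by 2 or more and 1 was lower, with a median difference of 2.93. Over all genes compared 42.5% were higher and 0.784% lower. The 1 lower was CLDN7, another claudin, with a difference of -2.30, looked up after the count was seen.

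Most defining markers of other cell types were at 0 in all 10 captures, and some genes of the wider lists were not. Of 6 blood markers, none was detected in an empty capture. In one-cell captures PTPRC, the leukocyte phosphatase CD45, lay between 1.43 and 8.98 FPKM and CD14 was at 31.8 FPKM in capture 5, while HBA1, HBA2, HBB and CD3E were at 0 in all 10 captures. Of 5 fibroblast markers, COL3A1, DCN and LUM were at 0 in all 10 captures, and the summed level was 0.82 FPKM or less in one-cell captures and 2.15 FPKM or less in empty captures. Of 3 endothelial markers, CDH5 and VWF were at 0 throughout and PECAM1 lay between 0.87 and 2.98 FPKM in one-cell captures, against 1.18, 7.42, 0, 0 and 44.8 FPKM in empty captures 1 to 5. Of 6 keratinocyte markers, KRT1, KRT14, LOR and FLG were at 0 in all 10 captures, KRT10 lay between 1.63 and 18.2 FPKM in one-cell captures and at 0 in empty captures, and DSC1 reached 0.25 FPKM in one-cell captures and 1.65 FPKM in empty captures. In the longer lists 1 fibroblast, 1 endothelial and 2 skin genes could be compared: PDGFRA had a difference of 0.50 and PECAM1 of -0.54, both of which changed sign under other settings, and both skin genes, DMKN and KRT10, were higher by 2 or more. PDGFRA, a growth factor receptor, lay at 102.4, 0.49, 1.53, 18.1 and 15.5 FPKM in one-cell captures 1 to 5, against 20.7, 6.47, 134.4, 0 and 0 FPKM in empty captures 1 to 5, and averaged 21.9 FPKM in bulk. DMKN, a secreted protein of skin, lay between 6.10 and 142.4 FPKM in one-cell captures and at 0 in all empty captures, and averaged 137 FPKM in bulk. Of 3 genes compared from a longer blood list 2 were higher by 2 or more, CD68 and CD74, against 42.5% of all genes compared. CD68, a lysosomal protein of macrophages, lay between 1.35 and 117 FPKM in one-cell captures and at 2.28 FPKM in empty capture 2, with 0 in the others. CD74, the invariant chain of MHC class II, lay at 380.4 to 1809 FPKM in one-cell captures with 786, 0, 44.5, 0 and 47.1 FPKM in empty captures 1 to 5. CD74 averaged 221 FPKM in bulk. MS4A1, the B cell antigen CD20 from the longer blood list, was at 0 in all one-cell captures and at 276 FPKM in empty capture 3, with 0 in the other empty captures, and was detected in too few captures to be compared.

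Ribosomal, translation and respiration genes had the 3 largest median differences of the lists examined. Of 70 cytosolic ribosomal protein genes compared, 67 were higher by 2 or more in one-cell captures and 0 were lower. Over all genes compared 42.5% were higher and 0.784% lower. The median difference was 6.48 for the ribosomal genes, against 1.60 over all genes compared. The share higher rose with level among genes detected in at least 3 one-cell captures with a bulk mean of 1 or more. At one-cell levels of 2 to 4, 4 to 6 and 6 to 8 (mean log2(FPKM + 1)) it was 52.6%, 85.7% and 91.5%. In 41 of the 70 all one-cell captures lay above all empty captures, against 14.5% of all genes compared. Ribosomal genes nevertheless took a share of FPKM in empty captures 3 and 5 as large as in cells, from fewer genes. The 71 rows summed to 69254 to 119396 FPKM in one-cell captures, against 14873, 14136, 109102, 38798 and 132288 FPKM in empty captures 1 to 5. These sums are shares of a library and do not give the amount of ribosomal mRNA at a site. In one-cell captures 70 of the 71 rows were detected in each library, and in empty captures 1 to 5 it was 51, 54, 28, 18 and 20. RPS27A alone stood at 75439 FPKM in empty capture 5. Translation factors behaved alike in count, with 14 of 17 higher by 2 or more and a median difference of 6.44. EEF1B2, an exchange factor of elongation factor 1, lay between 297 and 746 FPKM in one-cell captures and at 0 in all empty captures. HNRNPA1, an RNA-binding protein with a terminal oligopyrimidine mRNA, lay between 549 and 1050.3 FPKM in one-cell captures and at 18.2 FPKM in empty capture 1, with 0 in the others.

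Energy metabolism and protein turnover gave similar counts. For each list of this paragraph the shares over all genes compared were 42.5% higher by 2 or more and 0.784% lower. The share higher also rose with level in the cells, with the values given above. Of 41 nuclear genes of oxidative phosphorylation, 39 were higher by 2 or more and 0 lower, with a median difference of 6.42, and in empty captures 1 to 5 the number detected was 20, 17, 5, 1 and 2 of 42 rows. ATP5G1, a subunit c gene of ATP synthase, lay between 213 and 533 FPKM in one-cell captures and at 0 in all empty captures. Of 14 glycolysis genes, 13 were higher and 0 lower, with a median difference of 4.96. ENO1, enolase, lay between 801 and 2079 FPKM in one-cell captures, with 14.7 and 4.16 FPKM in empty captures 1 and 2 and 0 in the rest. The proteasome list was added after PSMB genes were seen among the largest differences, and it supports nothing by itself. Of its 36 genes, 32 were higher by 2 or more and 0 lower, and the median difference was 5.39. Of 13 heat shock genes 11 were higher, among them HSP90AB1, a cytosolic chaperone, at 1153 to 2397 FPKM in one-cell captures and 22.0 FPKM or less in empty captures. HSPA8, the constitutive HSP70, lay between 134 and 775 FPKM in one-cell captures and at 6.10 FPKM or less in empty captures. All 18 genes of the unfolded protein response were higher by 2 or more, with a median difference of 4.26. They include PDIA6, a disulfide isomerase, at 78.7 to 434 FPKM in one-cell captures and 18.7 FPKM or less in empty captures, and HSPA5, the ER chaperone BiP, at 67.1 to 331 FPKM and 36.2 FPKM or less.

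Genes of secretion, defence and stress were also mostly higher in the cells. For each list below the share higher by 2 or more over all genes compared was 42.5%. That share also rose with level in the cells, with the values given above. Of 26 genes for secreted and luminal proteins 23 were higher by 2 or more and 0 lower, with a median difference of 4.20. SERPINA1, alpha-1 antitrypsin, lay between 214 and 818 FPKM in one-cell captures and at 0 in all empty captures. LCN2, the iron-siderophore carrier lipocalin 2, lay between 1204 and 5746 FPKM in one-cell captures, against 1129.8 FPKM in empty capture 1 and 83.6 FPKM in empty capture 3, with 0 in the others. SLPI, a secreted protease inhibitor, spread widely between single cells, at 1225, 20.1, 5292, 789.8 and 975 FPKM in one-cell captures 1 to 5, against 71.4 FPKM in empty capture 1 and 0 in the rest. Its groups overlapped through one-cell capture 2 and empty capture 1. DHRS3, a retinal reductase, lay at 1715, 397, 2047, 4637 and 1223 FPKM in one-cell captures 1 to 5, against 0, 1.34, 72.9, 408 and 0 FPKM in empty captures 1 to 5. Its bulk mean was 35.3 FPKM, below the level of empty captures 3 and 4.

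Among 35 interferon-stimulated genes 25 were higher by 2 or more, against 42.5% of all genes compared, and 0 lower, with a median difference of 3.38. IFITM3, an antiviral membrane protein, lay between 2075 and 6386 FPKM in one-cell captures, against 70.1, 11.1, 107, 0 and 0 FPKM in empty captures 1 to 5. IFITM1 of the same family lay between 1466 and 5631 FPKM in one-cell captures, and its groups overlapped because empty capture 2 held 3846 FPKM. Of 17 immediate early genes 12 were higher, with MYC at 25.4 to 132 FPKM in one-cell captures and 0.77 FPKM or less in empty captures. FOS, a partner of JUN in AP-1, lay between 26.8 and 771 FPKM in one-cell captures and at 82.2 and 21.0 FPKM in empty captures 1 and 4. The list of NF-kB targets and inflammation had 10 genes compared, 6 of them higher by 2 or more, among them TNFAIP2 at 502 to 2945 FPKM in one-cell captures and 47.4 FPKM or less in empty captures, and TNIP1, an inhibitor of NF-kB, at 3.54 to 175 FPKM and 0. Among 15 NRF2 targets 10 were higher, with TXN, thioredoxin, at 266 to 375 FPKM in one-cell captures and 0 in all empty captures, and NQO1, a quinone reductase, at 91.9 to 441 FPKM and 4.59 FPKM or less. Of 24 actin cytoskeleton genes 19 were higher, with a median difference of 5.19. SH3BGRL3 lay between 82.8 and 452 FPKM in one-cell captures and at 0 in all empty captures, and MYL6, a myosin light chain, between 616 and 1191 FPKM, against 453 and 14.7 FPKM in empty captures 1 and 2 and 0 in the rest. Of 8 replication-dependent histone genes 7 were higher, with HIST1H4C at 186 to 754 FPKM in one-cell captures and 0 in all empty captures. HIST1H2BD lay between 94.3 and 264 FPKM in one-cell captures and at 4.59 FPKM in empty capture 2.

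Genes of the cell division cycle had smaller median differences than the lists of metabolism, secretion and stress. A difference cannot exceed the level in the cells, and whether level accounts for these medians was not tested. The 42 rows of G1/S genes summed to 212 to 595 FPKM in one-cell captures, with 13 to 28 rows detected per capture. The 51 rows of G2/M genes summed to 108 to 877 FPKM there, with 10 to 19 rows detected per capture. The 42 rows of oxidative phosphorylation summed to 10164 to 12788 FPKM there. Of 22 genes of the G1/S transition 9 were higher by 2 or more, a share near the 42.5% of all genes compared, and 0 lower. Their median difference was 1.80, near the 1.60 of all genes compared. CCND1, cyclin D1, was at 0, 10.1, 68.3, 32.3 and 41.3 FPKM in one-cell captures 1 to 5 and at 0 in all empty captures, and MCM7 of the replicative helicase reached 212 FPKM in one-cell capture 4 and 39.6 FPKM in empty capture 1. Of 17 G2/M genes 5 were higher and 2 lower, with a median difference of 0.61, which was -0.61 with quantile normalization. BUB3, a spindle checkpoint protein, lay between 11.3 and 373 FPKM in one-cell captures and at 0 in all empty captures. TOP2A, the topoisomerase that untangles chromosomes before mitosis, lay at 0.73, 0.11, 0, 0 and 0.40 FPKM in one-cell captures 1 to 5, against 0.88, 0.63, 300.5, 707 and 2953 FPKM in empty captures 1 to 5. ANLN, a scaffold of the cleavage furrow, lay at 0, 0.15, 0, 0 and 0 FPKM in one-cell captures 1 to 5, against 0, 0, 115, 319 and 1862 FPKM in empty captures 1 to 5. Both genes were thus absent or under 1 FPKM in the 5 cells and in empty captures 1 and 2, and high in empty captures 3 to 5. In bulk TOP2A averaged 134 FPKM and ANLN 48.9 FPKM. In bulk samples, fewer cells expressing a gene and less RNA per cell cannot be told apart.

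NCAPG, a condensin subunit, had the same pattern, at 0 in all 5 one-cell captures and at 0, 0, 97.5, 36.6 and 26.3 FPKM in empty captures 1 to 5. These genes were looked at together after their values were seen. Of 143 genes detected in all of empty captures 3, 4 and 5, 126 were detected in all 5 one-cell captures and 6 in at most 1. The 6 are TOP2A, ANLN, NCAPG, the zinc finger gene ZNF263, CALHM2 and IGF2. KIF23, a kinesin of the midzone of dividing cells, reached 6689 FPKM in empty capture 4 and 26.8 FPKM in empty capture 2, against 0.66 FPKM or less in one-cell captures, and was detected in too few captures to be compared. TOP2A and NCAPG were detected in 0 of 7 water libraries and 0 of 10 empty microrafts, and ANLN in 1 water library. TOP2A was detected in 3 of the 5 C1 captures with 2 cells, at up to 75.3 FPKM, and in 10 of 10 microrafts with 1 cell.

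Ambient transcripts, detected in at least 3 of 5 empty captures, numbered 1847, and 108 genes were detected in all 5. Of the 1847, 1279 were detected in all 5 one-cell captures and 36 in none. The rule of at least 3 empty captures was kept when a capture was left out, so the count could only fall. It was 635 without capture 1, 576 without capture 2 and 1012 without capture 3. Without capture 4 it was 1402 and without capture 5 it was 1596. The median difference of the ambient genes was 0.50, 456 of them were still higher by 2 or more in one-cell captures, and 75 were lower by 2 or more. Their median coding gene span was 42158 bp. Of the 1847, 11.1% were detected in 2 or more water libraries and 27.5% in 2 or more empty microrafts. The shares were 4.48% and 13.7% of all genes compared, and 7.59% and 19.5% of genes detected in 5 of 5 one-cell captures. They were 0.968% and 2.10% of the cell transcripts, a class set by absence from the empty captures. A bulk mean of 1 or more was found for 75.6% of the ambient transcripts, near the 74.4% of all genes compared.

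The 12 ambient mRNAs highest on average were read at uneven levels. TMSB4X, an actin-sequestering thymosin, lay at 5615, 2590.3, 5464, 4586 and 6344 FPKM in one-cell captures 1 to 5, against 359.5, 66.2, 3320, 7234 and 2273 FPKM in empty captures 1 to 5. RPS27 of the small ribosomal subunit lay between 3268 and 6465 FPKM in one-cell captures, against 163, 2695, 8232, 1098 and 150.1 FPKM in empty captures 1 to 5. Both overlapped between the groups and spread over more than a factor of 10 among empty captures. The calcium-binding gene S100A6, the chromatin-associated PTMA, the ribosomal RPS21 and RPS29, and the chaperone HSP90AA1 were likewise detected in all 5 empty captures. Their differences were 2.69 for S100A6, 0.99 for PTMA, 1.70 for RPS21, 1.80 for RPS29 and 0.21 for HSP90AA1. Without empty captures 1 and 2 the difference was -0.21 for PTMA and -1.91 for HSP90AA1. FTH1 lay at 525, 82.3, 1856, 2399 and 414 FPKM in one-cell captures 1 to 5, against 4.18, 937, 95581, 285 and 320.1 FPKM in empty captures 1 to 5. JUP, plakoglobin of the desmosome, lay between 349 and 4057 FPKM in one-cell captures and between 117 and 3129 FPKM in empty captures. Among these 12, TBC1D7 had no overlap, with every empty capture above every cell. B2M, the light chain of MHC class I, is not among these 12 and had no overlap either. It was detected in all 5 empty captures, at 90.0 to 478 FPKM, below the 2602 to 11685 FPKM of the one-cell captures.

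**Figure D4:**
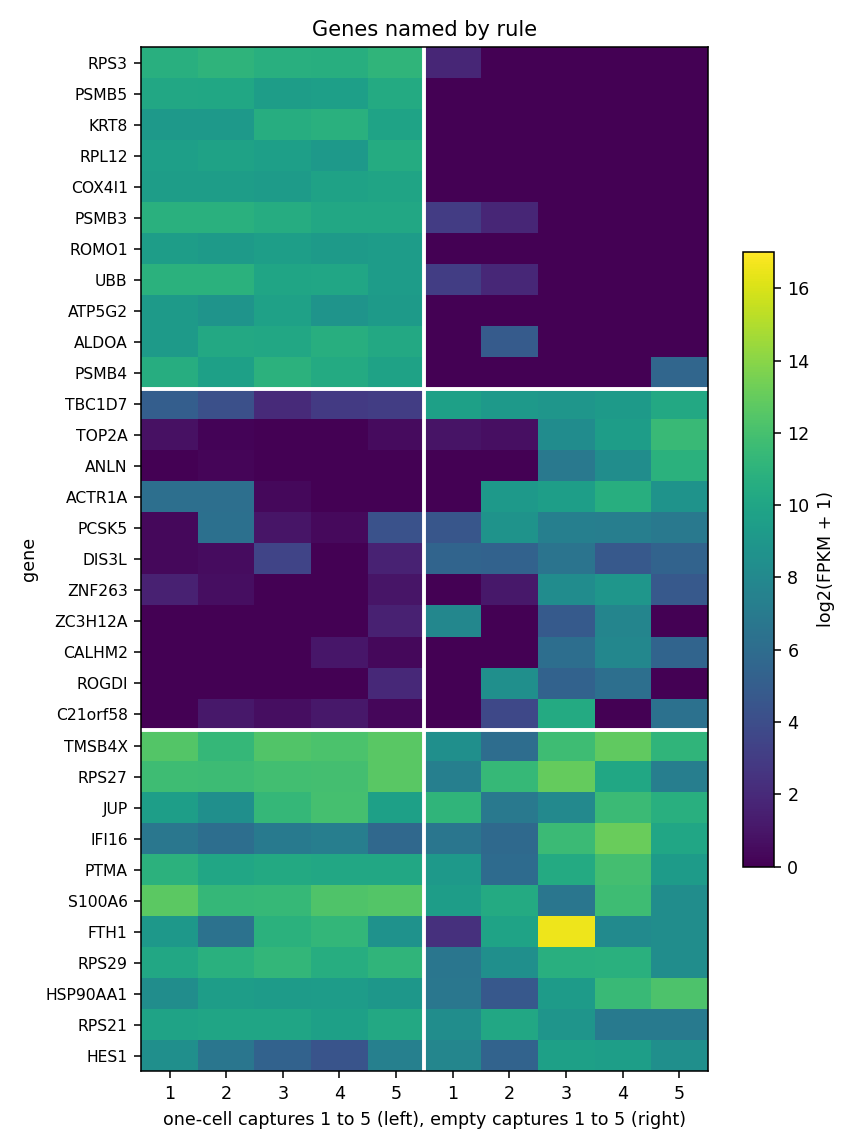
log2(FPKM + 1) of genes reported among the 12 largest positive differences (top block), the 12 most negative differences (middle) and the 12 highest means in empty captures (bottom, less TBC1D7, which stands in the middle block), in one-cell captures 1 to 5 (left) and empty captures 1 to 5 (right). The top block is at 48.4 FPKM or less in the empty captures, and in the middle block TBC1D7, PCSK5 and DIS3L are detected in all 5 empty captures.

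A short list of genes was read at higher level in every empty capture than in any cell. TBC1D7, a subunit of the TSC complex that restrains mTORC1, lay at 33.5, 16.5, 3.13, 6.43 and 7.55 FPKM in one-cell captures 1 to 5, against 802, 569, 479, 602 and 1238 FPKM in empty captures 1 to 5. The difference was -5.99, and the 5 empty captures spread less (SD 0.54 on the log2 scale) than the 5 one-cell captures (SD 1.18). DIS3L, a catalytic subunit of the cytoplasmic exosome, lay between 0 and 10.1 FPKM in one-cell captures and between 25.5 and 91.2 FPKM in empty captures. Among the 7 genes were also MALAT1, RASGRP3, GPR155 and MBOAT1. Several of the 7 were also read where no cell was added: TBC1D7 was detected in 3 of 7 water libraries, at up to 1586 FPKM, and in 3 of 10 empty microrafts, at up to 16547 FPKM, and RASGRP3 in 2 water libraries and 4 empty microrafts. DIS3L and MBOAT1 were detected in no water library and in 1 empty microraft each. In bulk TBC1D7 averaged 61.5 FPKM.

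The rest of the 12 most negative differences were high in some empty captures and not in others. ACTR1A, the dynactin actin-related protein, lay at 72.5, 71.6, 0.31, 0 and 0 FPKM in one-cell captures 1 to 5, against 0, 555.5, 745, 1623 and 415 FPKM in empty captures 1 to 5. PCSK5, a proprotein convertase, was detected in all 5 empty captures at 22.9 to 429 FPKM, and in one-cell captures it reached 76.8 FPKM in capture 2. It was also detected in 4 of 7 water libraries. ZNF263, ZC3H12A, an RNase that trims inflammatory mRNAs, CALHM2, ROGDI and C21orf58 each had a one-cell maximum of 2.83 FPKM or less and were at 0 in 1 or 2 empty captures. IFI16, a nuclear DNA sensor among the highest ambient genes, lay between 53.8 and 157 FPKM in one-cell captures, against 102, 56.0, 3046, 8932 and 1058 FPKM in empty captures 1 to 5. HES1, a Notch target, lay between 19.9 and 346 FPKM in one-cell captures and between 41.3 and 811 FPKM in empty captures. Over the 81 genes lower by 2 or more in one-cell captures, 54.3% had a bulk mean of 1 or more, against 94.6% of the 4392 genes higher by 2 or more.

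The noncoding RNAs of the nucleus did not follow one pattern. MALAT1, a long noncoding RNA of nuclear speckles, lay at 288, 261, 420.1, 249 and 417 FPKM in one-cell captures 1 to 5, against 2064, 15145, 9056, 1665 and 3554 FPKM in empty captures 1 to 5. All 5 empty captures lay above all 5 cells, the difference was -3.79, and bulk averaged 86.3 FPKM. NEAT1, the scaffold of paraspeckles, lay between 30.8 and 66.5 FPKM in one-cell captures, against 257, 1908, 15.3, 0 and 36.0 FPKM in empty captures 1 to 5. NEAT1 was thus above the cells in empty captures 1 and 2 only, and its difference of -0.04 changed sign with group medians. The cytoplasmic GAS5, host of small nucleolar RNAs, lay between 867 and 1119 FPKM in one-cell captures and at 33.02 FPKM in empty capture 2, with 0 in the others. SNHG5, another such host, lay between 54.1 and 202 FPKM in one-cell captures and at 42.8 FPKM in empty capture 1. Of 15 long noncoding RNAs compared 9 were higher by 2 or more in one-cell captures and MALAT1 was the 1 that was lower, against 42.5% higher and 0.784% lower over all genes compared.

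MTRNR2L genes marked empty captures 1 and 2. These are nuclear genes that arose as copies of MT-RNR2, the mitochondrial gene of the large ribosomal RNA, and carry a short open reading frame like that of the peptide humanin. They took 1.85%, 1.70%, 2.24%, 1.79% and 2.20% of summed FPKM in one-cell captures 1 to 5, against 49.3%, 17.9%, 0.589%, 0.832% and 0.050% in empty captures 1 to 5. The 5 cells were thus alike, empty captures 1 and 2 lay above all of them, and empty captures 3 to 5 lay below all of them. MTRNR2L8 lay at 3882, 3493, 4549, 3635 and 4594 FPKM in one-cell captures 1 to 5, against 130138, 30610, 1462, 972 and 0 FPKM in empty captures 1 to 5. MTRNR2L2 lay between 4106 and 6817 FPKM in one-cell captures, against 190087, 39908, 1730, 4216 and 256 FPKM in empty captures 1 to 5. The ratio of MTRNR2L2 to MTRNR2L8 was 1.18 to 1.5 in the 5 one-cell captures, 1.46 in empty capture 1, 1.30 in capture 2, 1.18 in capture 3 and 4.34 in capture 4, with none for capture 5, where MTRNR2L8 was at 0. The ratio of MTRNR2L10 to MTRNR2L8 was 0.230 to 0.288 in the one-cell captures and 0.167 in both of empty captures 1 and 2. Because 2 empty captures were high and 3 low, the sign of the mean difference depends on single captures: it was 1.5 for MTRNR2L8 and -1.12 without empty capture 5, and -0.35 for MTRNR2L2 and 0.85 without empty capture 1. Of 8 MTRNR2L genes compared 3 were higher by 2 or more, near the 42.5% of all genes compared. They are MTRNR2L4, MTRNR2L3 and MTRNR2L10, each of them at 0 in empty captures 3 to 5. MIR4461, a microRNA gene, lay between 1908 and 4910 FPKM in one-cell captures, against 119874, 38589, 0, 0 and 1587 FPKM in empty captures 1 to 5.

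The MTRNR2L genes were set beside MT-RNR2 by how many runs of 25 bases they share with it. MT-RNR2 has 1559 bases in GENCODE release 29, and the table of values has no row of that name. MTRNR2L8 shares 374 of its 1279 runs of 25 bases with MT-RNR2, MTRNR2L1 shares 175 of 1529, MTRNR2L6 106 of 1423, MTRNR2L10 81 of 1506 and MTRNR2L3 37 of 1515. MTRNR2L4 and MTRNR2L5 share 12 each and MTRNR2L7 shares 10. MTRNR2L2, which lay above MTRNR2L8 in all 10 captures, has a GENCODE record of 87 bases, which shares 16 of 63 runs, and was left out of this comparison. In one-cell capture 1 MTRNR2L8 lay at 3882 FPKM, MTRNR2L10 at 914, MTRNR2L1 at 881, MTRNR2L3 at 209.7, MTRNR2L4 at 92.3, MTRNR2L6 at 75.3, MTRNR2L5 at 0.94 and MTRNR2L7 at 0. In empty capture 1 these 8 genes lay at 130138 FPKM for MTRNR2L8, 29773 for MTRNR2L1, 5307 for MTRNR2L6, 21695 for MTRNR2L10, 5791 for MTRNR2L3, 927 for MTRNR2L4, 74.6 for MTRNR2L5 and 12.7 for MTRNR2L7. MTRNR2L6 thus stood below MTRNR2L10 and MTRNR2L3 in both captures although it shares more runs, and MTRNR2L10 stood above MTRNR2L1 in one-cell captures 1, 2 and 4. The longest run of bases that MTRNR2L8 shares with MT-RNR2 is 88 bases. Reads from such a run cannot be told apart between the nuclear copy and the mitochondrial gene, and the read length was not given in the sources used here. The stretch below is the reading frame of MTRNR2L8, start to stop codon, with the aligned bases of MT-RNR2 (positions 963 to 1037 of the transcript) and of 3 other copies, from GENCODE transcripts of GRCh38. It is shown because it is the part for which the family is named, and capitals mark bases that differ from MT-RNR2.
MT-RNR2: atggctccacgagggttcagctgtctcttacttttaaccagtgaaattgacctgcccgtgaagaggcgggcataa
MTRNR2L8: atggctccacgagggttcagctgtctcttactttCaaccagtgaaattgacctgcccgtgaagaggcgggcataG
MTRNR2L1: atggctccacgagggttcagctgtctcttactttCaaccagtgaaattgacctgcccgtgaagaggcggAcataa
MTRNR2L10: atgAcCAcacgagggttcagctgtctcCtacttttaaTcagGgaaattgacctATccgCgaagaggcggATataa
MTRNR2L7: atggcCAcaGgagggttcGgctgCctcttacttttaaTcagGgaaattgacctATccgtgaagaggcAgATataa
MTRNR2L8 and MTRNR2L1, the 2 highest of these 4 copies in empty capture 1, differ from MT-RNR2 at 2 of 75 bases here. MTRNR2L10, which stood next to MTRNR2L1 in the one-cell captures and in empty captures 1 and 2, differs at 11, and MTRNR2L7, the lowest, at 12. MTRNR2L6, MTRNR2L3 and MTRNR2L5, not shown, each differ at 9. They lay at 5307, 5791 and 74.6 FPKM in empty capture 1, so levels did not follow the number of differing bases. Whether the values of this family came from nuclear or mitochondrial RNA was not tested.

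**Figure D5:**
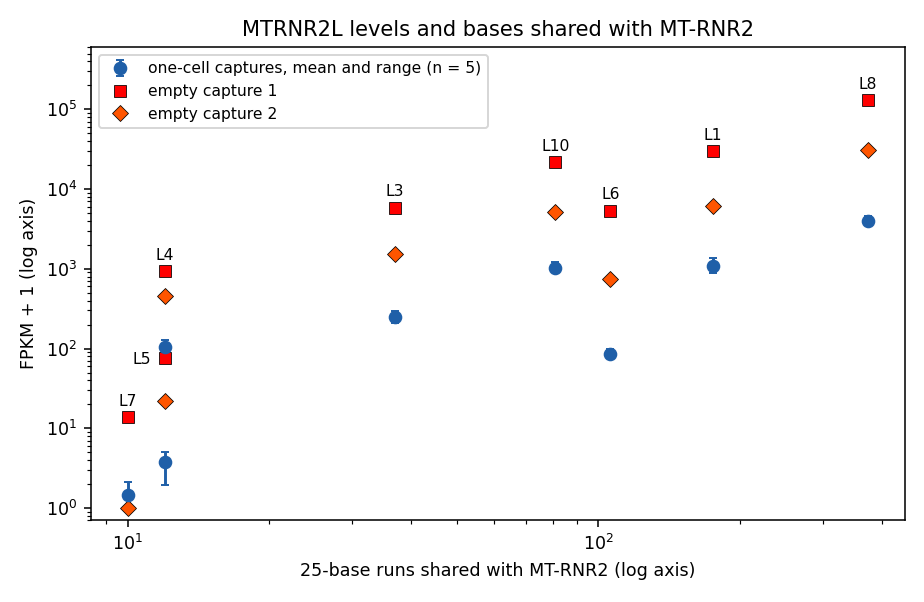
FPKM + 1 of 8 MTRNR2L genes (log axis) against the number of 25-base runs shared with MT-RNR2 (log axis), in 5 one-cell captures (mean with lowest and highest) and in empty captures 1 and 2. MTRNR2L8 shares 374 runs and reached 130138 FPKM in empty capture 1, and MTRNR2L7 shares 10 and reached 12.7 FPKM.

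Some transcripts that were scarce in bulk were read in all 10 captures. XAF1, an interferon-stimulated gene named for binding XIAP, lay at 28.2, 73.3, 73.6, 63.3 and 61.6 FPKM in one-cell captures 1 to 5, against 56.0, 171, 40.6, 40.2 and 11.9 FPKM in empty captures 1 to 5, and averaged 2.03 FPKM in bulk. The groups overlapped, and the difference of 0.32 became -2.30 with quantile normalization. Of 30 genes at 20 FPKM or more in all 10 captures, 7 averaged under 10 FPKM in bulk, a rule set after the values were seen. They are ATP9B, MBOAT1, MIPOL1, UGDH-AS1 and 3 rows named AB062083, BC050344 and BC037952. ATP9B, a phospholipid flippase, lay between 161 and 299 FPKM in one-cell captures, against 209, 849, 89.5, 68.0 and 70.4 FPKM in empty captures 1 to 5. It averaged 5.88 FPKM in bulk and was detected in 5 of 7 water libraries. UGDH-AS1, an antisense RNA, lay between 94.5 and 208 FPKM in one-cell captures and between 47.4 and 530.5 FPKM in empty captures, and was detected in 2 water libraries. MBOAT1 was higher in every empty capture than in any cell, and AB062083 lay between 249 and 586 FPKM in one-cell captures and between 507 and 4734 FPKM in empty captures. This row of AB062083 had a difference of -1.72 and a bulk mean of 0. Another row of the same name had a difference of 0.73, was detected in 3 empty captures and averaged 7.7 FPKM in bulk. Of the 7, 5 were detected in at least 1 water library. The share was 23.8% of all genes compared and 54.4% of the genes detected in all 10 captures.

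Genes scarce in bulk were set against the others. Of genes detected in at least 3 one-cell captures, 1972 had a bulk mean under 1 FPKM and 7003 had a bulk mean of 1 or more. Of the 1972, 11.9% were higher by 2 or more in one-cell captures, against 59.2% of the 7003, and the median differences were 0.69 and 2.37. Detection in at least 3 of 5 empty captures was alike over all levels, at 18.1% of the 1972 and 18.8% of the 7003. At matched levels in the cells, between 2 and 4 on the log2 scale, that detection was 22.4% of 754 genes and 15.5% of 3225 genes. Between 4 and 6 it was 37.7% of 61 genes and 21.9% of 1727 genes. Among genes detected in all 5 one-cell captures it was 29.3% and 28.7% between 2 and 4, and 44.9% and 25.3% between 4 and 6. The share higher by 2 or more in one-cell captures, for genes detected in at least 3 of them, was 25.2% and 52.6% between 2 and 4. Between 4 and 6 that share was 60.7% and 85.7%. These shares describe 10 libraries and were not tested.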

How the data were processed

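Per the submitters' processing notes, reads were quantified with RSEM against hg19, and the authors deposited 1 table of FPKM values with 30504 rows and 120 columns. Per the labels' protocols, cDNA came from the SMARTer kit and libraries from Nextera XT. All columns were mapped to samples through the labels, and 0 columns were left unmapped. The FPKM unit was checked: over 34 libraries with cells or bulk RNA the column totals varied with a CV of 7.90%, and with 4.51% after weighting by GENCODE transcript length (69.3% of rows matched). The table gives no counts, so sequencing depth is unknown and intervals for counting error are not given. The lowest values show the difference in precision: the 5th percentile of values above 0 was 0.24 to 0.52 FPKM in one-cell captures and 0.53 to 8.79 FPKM in empty captures.

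Computed here from the deposited values were the mean log2(FPKM + 1) per group, their difference (one-cell minus empty) over genes with an FPKM of 1 or more in at least 3 of 10 captures, counts past a difference of 2, counts of genes whose groups do not overlap, and Spearman's rho. No test was run, since each group counts as 1 sample. The calculation was tested on simulated data. Names stand on several rows for 1116 of 27118 names. Named genes stand on 1 row matched to a protein-coding gene: the 12 largest positive differences, the 12 most negative, the 12 highest in empty captures, 2 per list, and a fixed set, some of which are not reported here, that includes long noncoding RNAs and MTRNR2L genes. IFITM2 and RPS27A, the proteasome list, NCAPG, IGF2, B2M, MIR4461, KIF23, CLDN7, MS4A1 and the genes scarce in bulk were picked after their values were seen. The genes scarce in bulk include rows not matched to a protein-coding gene, and the name AB062083 stands on more than 1 row. The members, lists and markers were chosen with earlier results of these data known. Files are on hg19 and the reference tables on GRCh38, so no coordinates are given. Tools were Biopython 1.88, matplotlib 3.10.9, scipy 1.17.1, numpy 2.4.6, pandas 2.3.3 and Python 3.11.15. Alternatives tried were other detection levels, thresholds, filters and pseudocounts, group medians, rescaling, quantile normalization and leaving out captures.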

Additional observations from a re-analysis of the deposited data

Results flagged for a closer look

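In a group of 5 captures a value was singled out where its gap to the nearest other value was over 0.71 of the group's range. This was examined in 196 groups (named genes on the log2 scale and library measures) and 26 met it. In 16 of the 26 the other 4 captures were at 0, and such a group always meets it. Groups with all 5 captures at 0 cannot meet it and are among the 196. The count is therefore not set against a rate due to chance.

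Among one-cell captures, capture 4 stood apart in the median of its values above 0 (7.39 FPKM), ATP5G1 (213 FPKM, low) and HIST1H2BD (264 FPKM, high). Capture 3 was low in MYL6 (616 FPKM). Capture 5 was high in RPS27 (6465 FPKM), ZC3H12A (1.89 FPKM) and ROGDI (2.83 FPKM). Capture 1 was low in XAF1 (28.2 FPKM) and high in B2M (11685 FPKM), and capture 2 was the only cell with ANLN above 0 (0.15 FPKM).

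Among empty captures, capture 1 alone held RPS3 (2.60 FPKM), HNRNPA1 (18.2 FPKM), MCM7 (39.6 FPKM), SNHG5 (42.8 FPKM), EPCAM (2.98 FPKM) and SLPI (71.4 FPKM). Capture 1 was also highest in HSPA5 (36.2 FPKM) and the only one with ACTR1A at 0 FPKM. Capture 2 alone held ALDOA (28.3 FPKM), MYC (0.77 FPKM), NQO1 (4.59 FPKM), GAS5 (33.02 FPKM), HIST1H2BD (4.59 FPKM) and CD68 (2.28 FPKM). Capture 5 alone held PSMB4 (48.4 FPKM) and stood apart in RPS27A (75439 FPKM).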

How the results depend on the processing

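With detection at an FPKM of 5 one-cell captures had 3399 more genes than empty captures on average, against 5677 at an FPKM of 1, and leaving out single captures gave 5007 to 6779. Genes higher by 2 or more numbered 2296 with quantile normalization, 7369 with a pseudocount of 0.1, 1551 at a threshold of 4, 5636 without empty captures 1 and 2, and 4018 to 5096 without single captures. Genes lower by 2 or more numbered 343 with quantile normalization, 196 with group medians, 381 at a threshold of 1, 7 at a threshold of 4 and 75 to 174 without single captures. With MTRNR2L genes left out and libraries rescaled, an alternative chosen after seeing the data like the one without empty captures 1 and 2, 4029 were higher and 112 lower. The median difference over all genes was 3.34 with a pseudocount of 0.1, and 1.42 to 2.11 without single captures. Ambient transcripts numbered 1188 at an FPKM of 5, 5131 in at least 2 of 5, 108 in 5 of 5, and 576 to 1596 without single captures. Cell transcripts numbered 645 to 1316 without single captures and 2705 without empty captures 1 and 2. By their rules, leaving out captures can only lower the count of ambient transcripts and only raise that of cell transcripts. Of the named genes recomputed under these settings, none with a difference of 2 or more changed sign. The causes were not tested. No paired analysis was possible because no test was run and replicate numbers were given in accession order.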
